A study of Mus musculus with 6 samples.

Results

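Organic ion and drug transporters are the membrane carriers that move drugs, toxins, urate, steroid sulfates, prostaglandins, carnitine and bile salts across epithelia. Members were chosen by gene symbol, as every gene of the Slc22a, Slco, Slc47a, Abcb, Abcc and Abcg families with a probe set that the array's annotation gives to that gene alone. The rule found 66 of the 22180 genes tested, with 24 in Slc22a, 15 in Slco, 2 in Slc47a, 9 in Abcb, 10 in Abcc and 6 in Abcg. Only Slco2b1 had more than 1 probe set, and the brighter one stood for it.

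Expression was measured in 6 kidney samples of untreated mice killed at 4 weeks of age, with 1 Affymetrix array (1 colour) for each sample. 3 were labelled Cre-positive and 3 Cre-negative. For both groups alike, the labels name a conditional Mpp5 (Pals1) knockout line in a C56Bl/6 background and purchased Six2-Cre transgenic mice, with a mixed background for every sample. The Six2 regulatory sequence directs Cre to the progenitors of nephron epithelia, so tubules and podocytes can lose the allele, while collecting duct, vessels and blood cells come from other precursors. The series title speaks of Pals1 haplo-insufficiency, and the number of conditional alleles in each animal is not given in the labels. The labels do not say either that the samples are separate mice, so every p-value rests on the spread among these 6 samples, and some of that spread may be technical.

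As background, proximal tubule cells take organic anions and cations from blood by carriers of the Slc22a family in the basolateral membrane and pass them to urine by other carriers in the brush border. Organic anion uptake is driven by exchange for dicarboxylates, and cation exit by exchange for protons through the Slc47a proteins. The Slco proteins, called Oatps, take up large amphipathic anions such as steroid and thyroid hormone conjugates. The Abcb, Abcc and Abcg proteins are ATP-driven, and among them are P-glycoprotein, the multidrug resistance proteins and the breast cancer resistance protein. In mice many of these genes are known to differ between male and female kidneys under the control of sex hormones.

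Values are log2 RMA values, in which 1 unit is a 2-fold step. A difference is the Cre-positive mean minus the Cre-negative mean ± SE from the limma fit (n = 3 per group), and a gene is called when its limma p, adjusted over the 22180 genes, is under 0.05. Single genes compared by an exact permutation test could not go below p = 0.1 with 3 against 3 arrays. The array check of the targeted gene and of other tissues touches several results below. Mpp5 was at 8.04, 8.06 and 8.20 in Cre-positive arrays, against 8.66, 8.69 and 8.78 in Cre-negative arrays. Xist, the RNA of the inactive X chromosome, was at 4.00 to 4.29 in the Cre-positive arrays and at 4.16 in Cre-negative replicate 3, but at 10.76 and 10.70 in Cre-negative replicates 1 and 2, where the Y-linked genes were low. The Cre-positive group was thus all male, and the Cre-negative group held 2 female arrays and 1 male array. The mean of 10 skeletal muscle markers was 6.81 in Cre-positive replicate 2 and 4.99 to 5.26 elsewhere. The mean of 7 adrenal cortex markers was 9.11 in Cre-negative replicate 2 and 4.25 to 4.36 elsewhere. Of 6 genes that mark kidney segments, none was at the absent level, defined next, in any array. The 3 Y-linked genes measured reached at most 4.54 in the female arrays, and this value is used as the level of an absent transcript. At or below it, falls may be understated. The level is a rough guide, since it comes from 3 probe sets and others can read lower. Slc22a29, for example, was at 2.68 to 2.96 in Cre-positive arrays and at 4.53 in the male Cre-negative array. Probe sets differ in brightness, so values are compared between arrays and not between genes.

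More transporter transcripts were called lower than higher in Cre-positive kidneys. 25 of the 66 members were called lower and 6 higher, where 11.1% of all tested genes were called lower and 10.7% higher. Of 39 members at or above the median level of all genes, 22 were called lower and 6 higher, against 18.1% and 16.9% of the genes at those levels. The median difference over the 66 members was -0.16, against -0.01 over all genes. 16 of the 25 fell by at least 1 unit, and 1 of the 6 rose by as much, where 2.09% and 2.16% of all genes did so. The 3 Cre-positive arrays lay below all Cre-negative arrays in 29 members and above them in 8, where 19.9% and 18.6% of all genes did so. No called member had overlapping groups, but a call and separate groups rest on the same arrays, so this adds no support to the calls. With each array centred on its median, 27 members were called lower and 4 higher, and over all genes the lower calls were 62.7% of the calls with that centring and 51% as deposited.

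Sex bears on these counts, because each difference sets male Cre-positive arrays against a mainly female group. With sex as a second factor, 19 members were called lower and 4 higher, against 5.05% and 4.1% of all genes, and 17 of the 25 falls and 2 of the 6 rises were among them. That fit estimates the difference from the male Cre-negative array alone. Its SE was wider than without the factor in 54 members and narrower in 12. Of the 12 calls it ended, 11 had a wider SE, and the exception was Slc22a27, whose SE was narrower and whose difference was -0.56 in place of -2.57. With the male arrays alone, 14 members were called lower and 4 higher, against 2.66% and 2.3% of all genes (4.96% either way). Without both replicates 2, the arrays with muscle or adrenal transcripts, 17 were called lower and 3 higher, against 4.39% and 3.96%. The 11 calls that ended there were those of Slc22a5, Slc22a6, Slc22a12, Slc22a21, Slc22a23, Slc22a27, Slco2a1, Slco4a1, Slc47a1, Abcb6 and Abcc9. Leaving out 1 array gave 21 to 24 falls and 3 to 5 rises. The rises numbered 3 without Cre-negative replicate 1, without Cre-negative replicate 3 and without Cre-positive replicate 2.

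**Figure D1:**
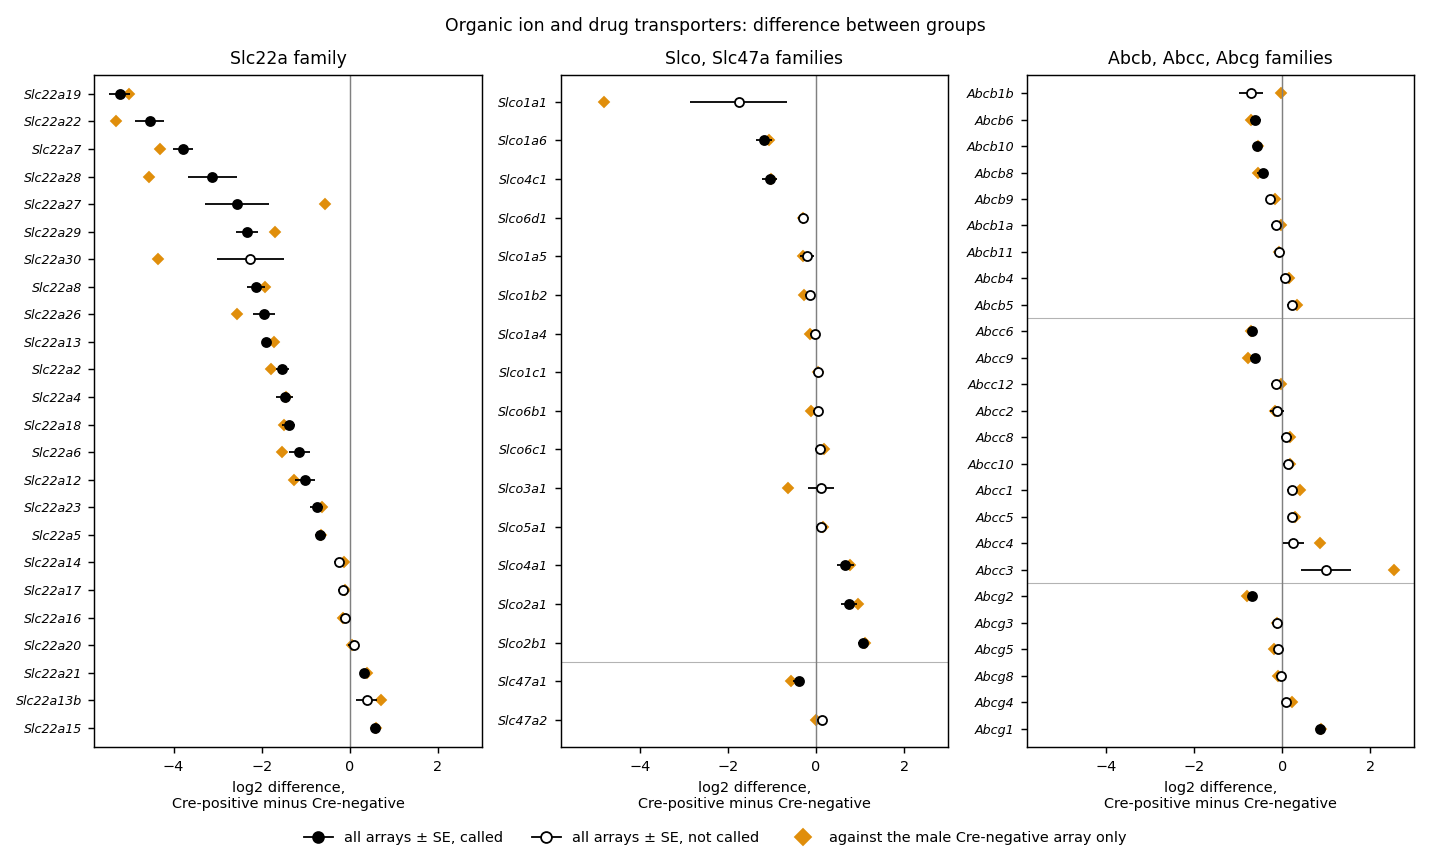
Log2 difference of each of the 66 members between Cre-positive and Cre-negative arrays (circles ± SE, filled where called; n = 3 per group), with the difference from the male Cre-negative array alone as diamonds. Slc22a members reach -5.22, while the other families stay between -1.76 and 1.06. Slco1a1, Slc22a30, Slc22a28, Slc22a27 and Abcc3 have diamonds far from their circles.

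Markers of the proximal tubule moved with the groups. Of 19 measured markers of the proximal tubule, the segment that makes most of these carriers, 15 were called lower and 0 higher. Over all genes the shares were 11.1% and 10.7%, and over genes at or above the median level 18.1% and 16.9%. The median difference of the 19 markers was -0.79. The mean level of the 19 markers was 10.80 to 10.96 in Cre-positive arrays, against 11.76 to 11.83 in Cre-negative arrays, and none of them was at the absent level. Of 6 markers of kidney segments, Nphs1 of podocytes (-1.41), Slc12a3 of the distal convoluted tubule (-0.78) and Lrp2 of the proximal tubule (-1.11) were called lower, Aqp2 of the collecting duct (0.91) was called higher, and Umod and Slc12a1 of the thick ascending limb were not called. Lrp2 is also 1 of the 19 proximal tubule markers. The part of these marker shifts in the transporter differences was not tested. In such bulk samples, fewer tubule cells and less RNA in each cell cannot be told apart.

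The Slc22a family held most of the falls. 16 of its 24 members were called lower and 2 higher, against 11.1% and 10.7% of all genes, and 6 were not called. The median difference was -1.44 (-1.47 from the male Cre-negative array). 14 of the 16 fell by at least 1 unit, where 2.09% of all genes were called lower by as much. With sex as a second factor 13 were called lower and 0 higher, against 5.05% and 4.1% of all genes.

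Among the organic anion carriers of the basolateral membrane, Slc22a8 and Slc22a6 encode Oat3 and Oat1, the pair that takes drugs and uremic anions from blood. Slc22a8 was at 9.43, 9.55 and 10.20 in Cre-positive arrays, against 11.97, 11.96 and 11.65 in Cre-negative arrays, a difference of -2.13 ± 0.20 (limma adjusted p = 0.000417). Slc22a6 was at 10.54, 9.79 and 9.88 in Cre-positive arrays, against 11.11, 10.93 and 11.62 in Cre-negative arrays, a difference of -1.15 ± 0.24 (limma adjusted p = 0.0113). For both genes every Cre-positive array lay below every Cre-negative array. The call of Slc22a6 ended without both replicates 2 (limma adjusted p = 0.0595). Slc22a20, the third paralogue and known as Oat6 of the olfactory mucosa, was at 5.09 to 5.50 in Cre-positive arrays and at 5.22 to 5.30 in Cre-negative arrays, with no call.

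Slc22a7 and Slc22a22, which encode Oat2 and the prostaglandin-specific carrier Oat-PG, also fell. Slc22a7 was at 4.44, 4.88 and 4.65 in Cre-positive arrays, against 8.01, 8.35 and 8.96 in Cre-negative arrays, 13.8-fold lower on the linear scale (-3.78 ± 0.23). Slc22a22 was at 4.82, 4.69 and 5.49 in Cre-positive arrays, against 9.19, 9.15 and 10.31 in Cre-negative arrays, 23.4-fold lower (-4.55 ± 0.33, limma adjusted p = 0.000146). In Cre-positive kidneys both genes were at 4.44 to 5.49, where the absent level is 4.54. Both were also highest in the male Cre-negative array, against which the falls were 19.7-fold and 39.6-fold.

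Slc22a12 and Slc22a13 are urate carriers of the brush border. Slc22a13, whose human counterpart exchanges urate and nicotinate, was at 8.47, 8.23 and 8.38 in Cre-positive arrays, against 10.29, 10.39 and 10.09 in Cre-negative arrays (-1.90 ± 0.11, limma adjusted p = 7.02e-05). Slc22a12, the mouse urate transporter Urat1, was at 10.76, 10.13 and 9.79 in Cre-positive arrays, against 11.22, 11.03 and 11.48 in Cre-negative arrays (-1.02 ± 0.24, limma adjusted p = 0.0179). Slc22a12 lost its call with sex as a second factor (limma adjusted p = 0.0632) and in 3 of the 6 fits without 1 array, those without Cre-negative replicate 1, Cre-negative replicate 3 or Cre-positive replicate 2 (up to limma adjusted p = 0.0653). Slc22a13b, a transcribed pseudogene beside Slc22a13, was above the absent level in 1 array only, at 4.58.

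The organic cation and carnitine carriers did not move alike. Slc22a2 encodes Oct2, the basolateral entry of cations such as metformin. It was at 10.29, 10.58 and 10.25 in Cre-positive arrays, against 11.75, 11.79 and 12.17 in Cre-negative arrays (-1.53 ± 0.14, limma adjusted p = 0.000386). Slc22a4, the ergothioneine carrier Octn1, was at 6.88, 6.91 and 7.59 in Cre-positive arrays, against 8.72, 8.53 and 8.57 in Cre-negative arrays (-1.48 ± 0.19). Slc22a5, the carnitine carrier Octn2, was at 9.56, 9.28 and 9.12 in Cre-positive arrays, against 10.08, 9.90 and 9.98 in Cre-negative arrays (-0.67 ± 0.13). In these 3 genes the groups did not overlap, and the call of Slc22a5 ended with sex as a second factor (limma adjusted p = 0.0826). Slc22a21, the mouse carnitine carrier Octn3 that lies between Slc22a5 and Slc22a4 on chromosome 11, was called higher. It was at 6.89, 6.94 and 7.02 in Cre-positive arrays, against 6.72, 6.59 and 6.57 in Cre-negative arrays (0.32 ± 0.09, limma adjusted p = 0.0328). That call ended under 11 alternatives, among them the second quantile normalization, the centring and each fit without 1 array but the one without Cre-positive replicate 1 (up to limma adjusted p = 0.109).

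Of the remaining Slc22a members, several have no settled substrate. Slc22a18, an imprinted gene, was at 9.99, 9.77 and 10.32 in Cre-positive arrays, against 11.40, 11.31 and 11.53 in Cre-negative arrays (-1.39 ± 0.14, limma adjusted p = 0.000592). Slc22a23 was at 9.69, 9.30 and 9.38 in Cre-positive arrays, against 10.43, 10.13 and 10.08 in Cre-negative arrays (-0.76 ± 0.14). Slc22a15 was the other rise of the family, and its call held in each fit without 1 array. It was at 7.04, 7.06 and 6.94 in Cre-positive arrays, against 6.34, 6.57 and 6.42 in Cre-negative arrays (0.57 ± 0.09, limma adjusted p = 0.00432). With sex as a second factor the calls of Slc22a23 and Slc22a15 ended (limma adjusted p = 0.105 and 0.0509). Slc22a14, Slc22a16 and Slc22a17 were not called, with differences of -0.25 to -0.11.

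**Figure D2:**
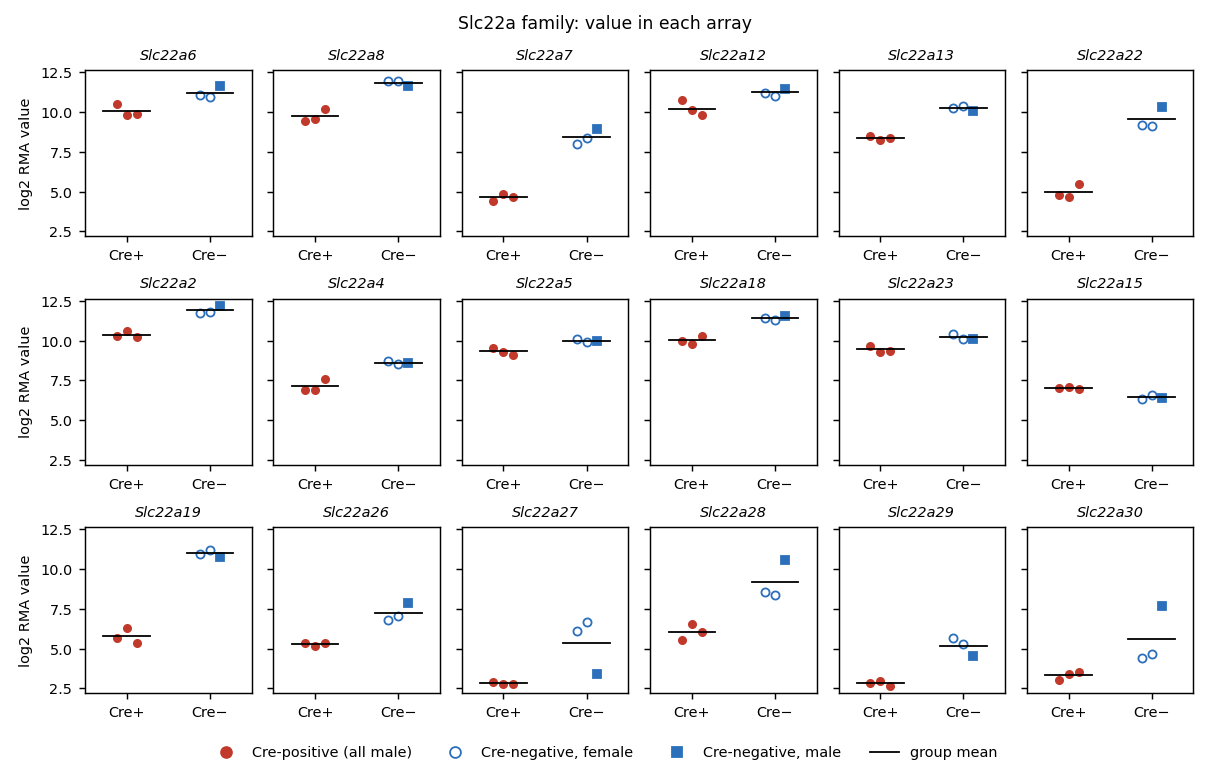
Log2 RMA value of Slc22a members in each array (Cre-positive in red, Cre-negative in blue with open circles for the 2 female arrays and a square for the male one; lines are group means). The Cre-positive means of Slc22a19, Slc22a22 and Slc22a7 lie 3.78 to 5.22 below the Cre-negative means, and that of Slc22a15 alone of those drawn lies above.

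The rodent organic anion transporter cluster, 6 similar genes on chromosome 19 with no other protein-coding gene between them in RefSeq, held Slc22a19, the member with the largest difference of all 66. Slc22a19, Slc22a26, Slc22a27, Slc22a28 and Slc22a29 were called lower, and Slc22a30 was not called although its groups did not overlap. Apart from Slc22a19, which is Oat5, a steroid sulfate carrier of the brush border, their substrates are poorly known. As the genes are close paralogues, the attribution of a probe set to 1 of them is uncertain.

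Slc22a19 was at 5.64, 6.32 and 5.35 in Cre-positive arrays, against 10.97, 11.23 and 10.78 in Cre-negative arrays, 37.4-fold lower. The spread within the Cre-negative group was small, and the male array lay 0.32 below the mean of the female ones. Slc22a26 was at 5.35, 5.15 and 5.37 in Cre-positive arrays, against 6.82, 7.03 and 7.86 in Cre-negative arrays (-1.95 ± 0.24, limma adjusted p = 0.00133). Slc22a28 was at 5.52, 6.57 and 6.06 in Cre-positive arrays, against 8.56, 8.36 and 10.60 in Cre-negative arrays (-3.12 ± 0.56, limma adjusted p = 0.00634). In both of these the male Cre-negative array was the highest of the 6.

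Slc22a30 was at 3.02, 3.42 and 3.56 in Cre-positive arrays, against 4.41, 4.67 and 7.69 in Cre-negative arrays (-2.26 ± 0.77, limma adjusted p = 0.0741). It was called with sex as a second factor (-4.36 ± 0.22, limma adjusted p = 0.000455). Slc22a29 and Slc22a27 had the opposite order within the Cre-negative group, with the male array lowest. Slc22a29 was at 2.83, 2.96 and 2.68 in Cre-positive arrays, against 5.64, 5.31 and 4.53 in Cre-negative arrays (-2.34 ± 0.25, limma adjusted p = 0.000749). Slc22a27 was at 2.89, 2.79 and 2.75 in Cre-positive arrays, against 6.10, 6.66 and 3.38 in Cre-negative arrays (-2.57 ± 0.73, limma adjusted p = 0.0410). Its call rested on the female arrays, since against the male array the difference was -0.56 and, with sex as a second factor, limma adjusted p = 0.168. The call of Slc22a27 also ended in 5 of the 6 fits that left out 1 array, all but the one without the male Cre-negative array (up to limma adjusted p = 0.132).

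Neighbouring genes of this cluster had different patterns over the Cre-negative arrays. The promoter windows of 3 of them are shown, from 250 bases before to 50 bases after the RefSeq transcript start in GRCm38.p6. In Slc22a30 and Slc22a29, capitals mark bases that align to another base in Slc22a28. Within the Cre-negative group, Slc22a28 and Slc22a30 were highest in the male array and Slc22a29 in the female ones.
Slc22a28, chr19:8131933-8132232, minus strand: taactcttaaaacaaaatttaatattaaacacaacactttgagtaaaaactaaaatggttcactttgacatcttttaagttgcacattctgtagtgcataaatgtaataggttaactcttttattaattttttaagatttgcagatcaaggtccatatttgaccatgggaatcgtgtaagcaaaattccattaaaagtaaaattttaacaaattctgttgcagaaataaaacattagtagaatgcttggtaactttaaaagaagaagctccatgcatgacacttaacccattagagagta
Slc22a30, chr19:8405056-8405355, minus strand: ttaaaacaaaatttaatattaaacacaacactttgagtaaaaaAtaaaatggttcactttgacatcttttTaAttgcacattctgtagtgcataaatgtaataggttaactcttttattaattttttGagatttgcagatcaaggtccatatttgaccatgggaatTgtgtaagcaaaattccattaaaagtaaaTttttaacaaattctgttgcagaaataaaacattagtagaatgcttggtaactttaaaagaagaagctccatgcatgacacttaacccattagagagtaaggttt
Slc22a29, chr19:8218851-8219150, minus strand: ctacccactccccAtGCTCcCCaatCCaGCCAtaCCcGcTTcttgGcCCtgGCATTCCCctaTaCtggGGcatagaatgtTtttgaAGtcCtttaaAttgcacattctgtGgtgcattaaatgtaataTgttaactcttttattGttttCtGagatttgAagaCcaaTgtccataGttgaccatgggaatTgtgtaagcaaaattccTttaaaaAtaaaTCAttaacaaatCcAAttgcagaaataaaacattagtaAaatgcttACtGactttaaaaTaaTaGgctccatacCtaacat
Over the whole global alignment, gaps included, 94.1% of positions were identical between Slc22a28 and Slc22a30 and 68.0% between Slc22a28 and Slc22a29. The windows of Slc22a6 and Slc22a8, aligned with the same scores, shared 49.4%. Slc22a26, in which the male array was also the highest, shared 49.55% with Slc22a28 and 51.1% with Slc22a30. Higher shares were found for genes without that order. Slc22a19, in which the male array was the lowest Cre-negative one, shared 61.08% with Slc22a28 and 61.95% with Slc22a30. Slc22a29 shared 65.35% with Slc22a30. Slc22a27, higher in the female arrays as Slc22a29 was, shared 48.2% with Slc22a29. A link between these windows and the patterns over the arrays was not tested. The window of Slc22a28 differed from that of Slc22a30 at 6 aligned bases and from that of Slc22a29 at 64. The motif TTCNNNGAA, to which Stat proteins bind, occurred on either strand in 8.3% of all 32851 RefSeq windows and in 10 of the members' 63 windows. Those windows belonged to 9 of 53 members, but to none of the 3 shown. The 9 members were the falls Slc22a19 and Slc22a26, the rises Slc22a15 and Slco2b1, and Abcc4, Abcc5, Slc22a16, Slco1a5 and Slco1b2, which were not called. The other motif searched, the HNF1 half-site GTTAAT, occurred in 7.1% of all windows and in 4 of the 63. Those were windows of Slc22a6, Slc22a8, Slco1b2 and Slc22a29, the last of which is shown. A match describes these letters and does not show a binding site.

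In the Slco family 2 of 15 members were called lower and 3 higher, with a median of 0.03 over all members. Those shares, 13.3% and 20%, were close to or above the 11.1% and 10.7% of all genes, and 5 of the 15 were at or below the absent level in all arrays. Those 5 were Slco1a5, Slco6b1, Slco6c1, Slco6d1 and the hepatic uptake carrier Slco1b2.

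Slco1a6 and Slco4c1 fell. Slco1a6, an Oatp expressed in mouse kidney, was at 9.23, 8.80 and 9.45 in Cre-positive arrays, against 10.25, 10.56 and 10.23 in Cre-negative arrays (-1.18 ± 0.17, limma adjusted p = 0.00264). Slco4c1, known in human and rat as a basolateral carrier of digoxin and thyroid hormone, was at 8.09, 7.54 and 8.21 in Cre-positive arrays, against 9.11, 8.93 and 8.96 in Cre-negative arrays (-1.05 ± 0.17, limma adjusted p = 0.00408). In both the groups stood apart. The call of Slco4c1 ended with sex as a second factor (limma adjusted p = 0.0567).

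Slco1a1, the Oatp of the brush border that male mouse kidneys make under androgens, was at 3.47, 3.72 and 4.01 in Cre-positive arrays, against 3.96, 3.96 and 8.56 in Cre-negative arrays. Only the male Cre-negative array was above the absent level. The male Cre-positive arrays were 28.3-fold below that array and had values like those of the female arrays. Over all arrays the gene was not called (-1.76 ± 1.11, limma adjusted p = 0.324), and with sex as a second factor it was (-4.82 ± 0.21, limma adjusted p = 0.000384). Its paralogue Slco1a4 was at 5.66 to 6.06 in Cre-positive arrays and at 5.82 to 5.99 in Cre-negative arrays, with a difference of -0.03 (95% interval -0.30 to 0.25).

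The 3 rises of the family were in carriers that are not particular to the proximal tubule. Slco2b1, an uptake carrier of steroid sulfates, was at 9.06, 8.81 and 8.93 in Cre-positive arrays, against 7.95, 7.86 and 7.82 in Cre-negative arrays (1.06 ± 0.09, limma adjusted p = 0.000331). Its dimmer probe set, at 4.54 to 4.70 in Cre-positive arrays and 4.49 to 4.53 in Cre-negative arrays, differed by 0.11. Slco2a1, the prostaglandin transporter of endothelium and collecting duct, was at 10.01, 10.26 and 10.69 in Cre-positive arrays, against 9.66, 9.68 and 9.37 in Cre-negative arrays (0.75 ± 0.18, limma adjusted p = 0.0194). Slco4a1, a thyroid hormone carrier, was at 8.88, 8.26 and 8.26 in Cre-positive arrays, against 7.66, 8.06 and 7.70 in Cre-negative arrays (0.66 ± 0.19, limma adjusted p = 0.0415). Slco2b1 kept its call in every alternative that was run. The call of Slco2a1 ended without Cre-positive replicate 2, Cre-negative replicate 1 or Cre-negative replicate 3 (up to limma adjusted p = 0.0673), and that of Slco4a1 without these or Cre-positive replicate 1 (up to limma adjusted p = 0.134). Both calls also ended with sex as a second factor (limma adjusted p = 0.0591 and 0.152).

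Markers of other cell types moved beside these rises. Aqp2, the water channel of the collecting duct, was at 10.99, 10.43 and 9.99 in Cre-positive arrays, against 9.50, 9.68 and 9.50 in Cre-negative arrays (0.91 ± 0.23, limma adjusted p = 0.0239). Of 10 macrophage and myeloid markers 8 were called higher and 0 lower, where 10.7% and 11.1% of all genes were. Their mean level was 8.43 to 9.46 in Cre-positive arrays, against 7.25 to 7.36 in Cre-negative arrays. Of 10 endothelial markers 4 were called lower and 0 higher, where 11.1% and 10.7% of all genes were. The mean level of these was 8.99 to 9.33 in Cre-positive arrays, against 9.47 to 9.54 in Cre-negative arrays. No marker of either list was at the absent level in all arrays. The part of these shifts in the rises was not tested.

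The Slc47a genes encode the proton-coupled exporters that complete cation secretion. Slc47a1, Mate1 of the brush border, was at 11.21, 10.93 and 11.05 in Cre-positive arrays, against 11.44, 11.32 and 11.63 in Cre-negative arrays (-0.40 ± 0.12, limma adjusted p = 0.0432). That call ended under 9 alternatives, including the second quantile normalization, and without Cre-positive replicate 2 or 3 or Cre-negative replicate 1 or 3 (up to limma adjusted p = 0.133). Slc47a2 was at 4.99 to 5.09 in Cre-positive arrays and at 4.71 to 5.03 in Cre-negative arrays, with no call. The difference was -1.53 in Slc22a2, the entry step of cation secretion, and -0.40 in Slc47a1, the exit step, and the gap between them was not tested.

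Among the ATP-driven exporters, in Abcb, Abcc and Abcg together, 6 of 25 members were called lower and 1 higher, against 11.1% and 10.7% of all genes, and no difference reached 1 unit. The Abcb calls were in transporters known mainly from organelles. Abcb10, of the inner mitochondrial membrane and known for its part in heme synthesis, was at 7.63, 7.57 and 7.56 in Cre-positive arrays, against 8.19, 8.15 and 8.14 in Cre-negative arrays (-0.58 ± 0.08, limma adjusted p = 0.00181). Abcb6, a porphyrin transporter, was at 8.23, 7.78 and 8.01 in Cre-positive arrays, against 8.59, 8.55 and 8.70 in Cre-negative arrays (-0.61 ± 0.12). Abcb8, also mitochondrial, was at 7.38, 7.68 and 7.60 in Cre-positive arrays, against 8.08, 7.80 and 8.11 in Cre-negative arrays (-0.44 ± 0.12). With sex as a second factor only Abcb10 of the 3 stayed called (limma adjusted p = 0.0345), with 0.0615 for Abcb6 and 0.106 for Abcb8. The call of Abcb8 also ended without Cre-positive replicate 1 or 3 or Cre-negative replicate 1 or 3 (up to limma adjusted p = 0.121).

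The 2 P-glycoprotein genes of mice, Abcb1a and Abcb1b, are neighbouring protein-coding genes on chromosome 5 and were not called. Abcb1a was at 6.83, 7.19 and 7.11 in Cre-positive arrays, against 7.26, 7.25 and 7.07 in Cre-negative arrays (-0.15, 95% interval -0.42 to 0.12). Abcb1b was at 7.68, 7.44 and 7.37 in Cre-positive arrays, against 8.54, 8.57 and 7.52 in Cre-negative arrays (-0.71 ± 0.27). The difference of Abcb1b lay in the female arrays, as it was -0.02 against the male one. Abcb5 and the bile salt export pump gene Abcb11 were at or below the absent level in all arrays. Abcb4 and Abcb9 were not called.

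Of the multidrug resistance proteins, those of the brush border were not called. Abcc2, which encodes Mrp2, was at 11.48, 10.84 and 11.08 in Cre-positive arrays, against 11.29, 11.15 and 11.30 in Cre-negative arrays (-0.11, 95% interval -0.48 to 0.25). Abcc4, which encodes Mrp4, an exporter of cyclic nucleotides and urate, was at 9.26, 9.40 and 9.17 in Cre-positive arrays, against 9.44, 9.21 and 8.41 in Cre-negative arrays. It was called with sex as a second factor (0.86 ± 0.15, limma adjusted p = 0.0192) and not over all arrays (0.25 ± 0.24, limma adjusted p = 0.531).

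Abcc3, which encodes the basolateral exporter Mrp3, showed the widest gap within its family. It was at 9.11, 8.61 and 8.51 in Cre-positive arrays, against 8.47, 8.57 and 6.21 in Cre-negative arrays. The male Cre-positive arrays thus had values like those of the female Cre-negative arrays and were 5.76-fold above the male one. Over all arrays it was not called (0.99 ± 0.57, limma adjusted p = 0.279), and with sex as a second factor it was (2.53 ± 0.23, limma adjusted p = 0.00215).

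The family's 2 calls were falls. Abcc6, which is needed for release of ATP from cells and is mutated in pseudoxanthoma elasticum, was at 6.54, 6.33 and 6.38 in Cre-positive arrays, against 7.13, 7.06 and 7.13 in Cre-negative arrays (-0.69 ± 0.09, limma adjusted p = 0.00158). Abcc9, the sulfonylurea receptor of vascular potassium channels and no drug exporter, was at 7.14, 7.28 and 7.47 in Cre-positive arrays, against 7.75, 7.91 and 8.08 in Cre-negative arrays (-0.62 ± 0.12, limma adjusted p = 0.00946). Both calls held with sex as a second factor and ended with male arrays alone (limma adjusted p = 0.0625 for Abcc6 and 0.0662 for Abcc9). Abcc1, Abcc5, Abcc8, Abcc10 and Abcc12 had differences of -0.14 to 0.23 with no call.

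In the Abcg family the 2 calls went opposite ways. Abcg2, the breast cancer resistance protein that exports urate and drugs from the brush border, was at 9.67, 9.55 and 9.55 in Cre-positive arrays, against 10.25, 10.17 and 10.39 in Cre-negative arrays (-0.68 ± 0.09, limma adjusted p = 0.00187). Abcg1, which passes cholesterol from macrophages and other cells to lipoprotein, was at 8.34, 8.18 and 8.39 in Cre-positive arrays, against 7.44, 7.48 and 7.43 in Cre-negative arrays (0.86 ± 0.09, limma adjusted p = 0.000624). Both calls held in every alternative that was run. The myeloid markers given above moved beside Abcg1, and their part in it was not tested. Abcg5 and Abcg8, which together form the sterol exporter, and Abcg3 and Abcg4, had differences of -0.13 to 0.10 with no call.

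**Figure D3:**
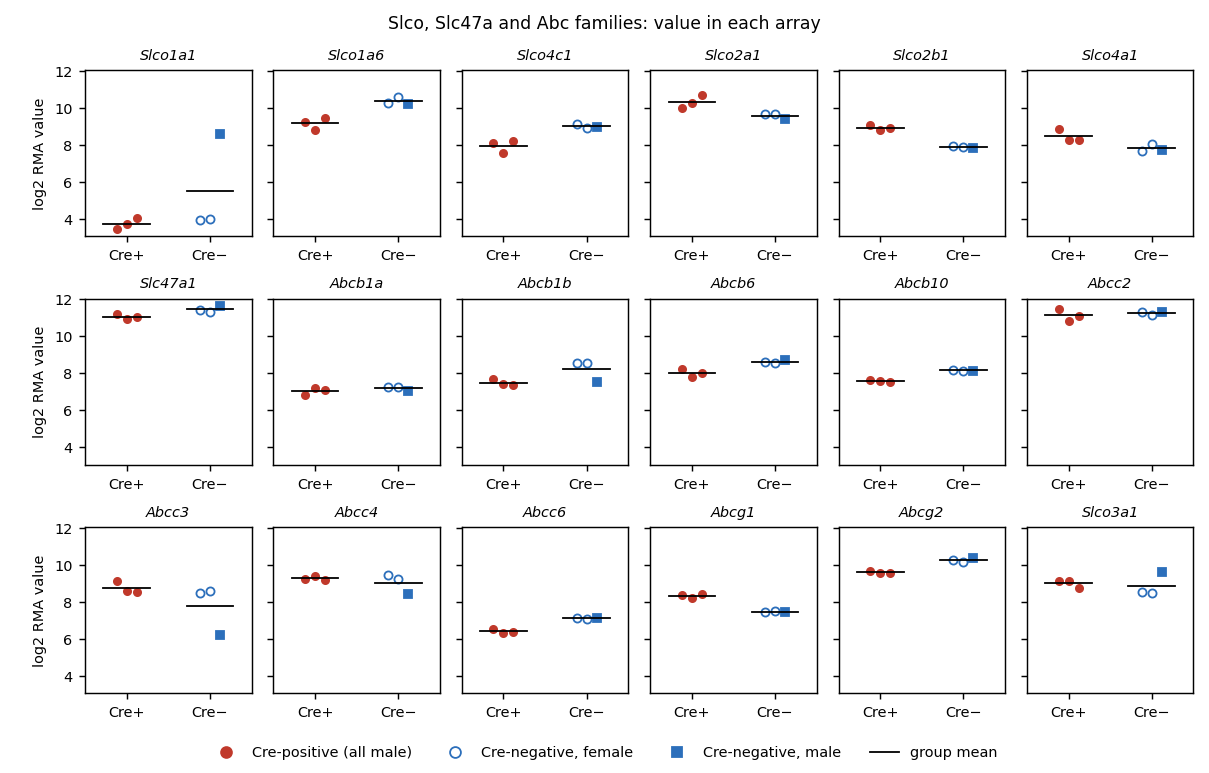
Log2 RMA value of members of the Slco, Slc47a and Abc families in each array (Cre-positive in red, Cre-negative in blue with open circles for the 2 female arrays and a square for the male one; lines are group means). In Slco1a1 and Abcc3 the Cre-positive points sit with the female Cre-negative points, at 3.47 to 4.01 and 8.51 to 9.11, while Slco2b1 and Abcg1 lie above both.

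Within the Cre-negative group, 8 of the 66 members differed by at least 1 unit between the female arrays and the male one. In 3 members, Slc22a27, Abcc3 and Abcb1b, both female Cre-negative arrays were at least 1 unit above the male one, where 0.0676% of all genes met this rule. In 5 members, Slco1a1, Slc22a30, Slc22a28, Slc22a22 and Slco3a1, the male array was at least 1 unit above both female ones, where 0.225% of all genes did. With 1 male array these gaps have no replicate check, and no test was made. Of the 5 male-high members, the Cre-positive arrays lay below the female Cre-negative arrays as well in Slc22a30 (-1.21), Slc22a28 (-2.41) and Slc22a22 (-4.17). The Cre-positive mean of Slco1a1 differed by -0.23 from the female mean, and that of Slco3a1 by 0.50. Slco3a1 was at 9.11, 9.15 and 8.72 in Cre-positive arrays, against 8.51, 8.48 and 9.63 in Cre-negative arrays. Of the 3 female-high members, the Cre-positive mean minus the female mean was 0.22 in Abcc3, -1.06 in Abcb1b and -3.57 in Slc22a27.

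**Figure D4:**
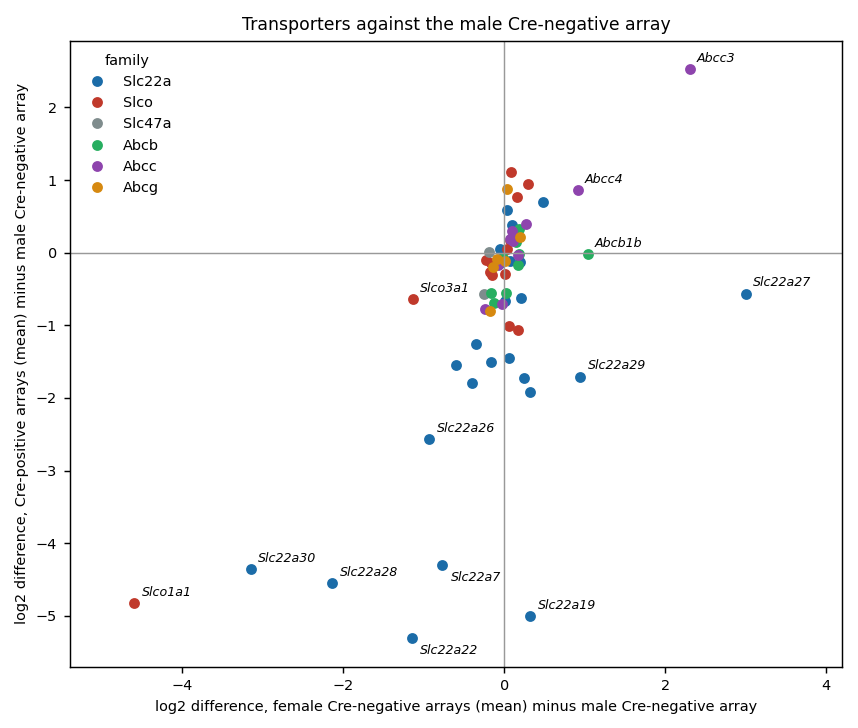
Each of the 66 members by the log2 difference of the 2 female Cre-negative arrays (x) and of the 3 Cre-positive arrays (y) from the single male Cre-negative array, coloured by family. Slc22a19 (0.32, -5.01) fell with little gap between the female and male Cre-negative arrays. Slco1a1 (-4.60, -4.82) and Abcc3 (2.31, 2.53) lie where Cre-positive and female arrays have like values. Abcb1b (1.04, -0.02) lies where the Cre-positive arrays and the single male Cre-negative array have like values.

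Genes that work with these carriers or control them were taken from 2 lists. Of 17 measured partner transporters and scaffolds 8 were called lower and 0 higher, against 11.1% and 10.7% of all genes, with a median of -0.47. The 4 of smallest p were Slc51a, Slc10a2, Pdzd3 and Slc17a3. Slc51a, a subunit of the basolateral bile acid and steroid exporter, differed by -1.23 ± 0.10 (limma adjusted p = 0.000266). Slc10a2, the sodium-coupled bile acid carrier of the brush border, was at 5.25, 5.48 and 6.07 in Cre-positive arrays, against 7.67, 8.38 and 7.99 in Cre-negative arrays (-2.42 ± 0.24). Pdzd3, a scaffold of brush border carriers, differed by -1.14 ± 0.13, and Slc17a3, a voltage-driven anion and urate exporter, by -1.68 ± 0.27. All 4 stayed called with sex as a second factor. Slc13a3, the dicarboxylate carrier that keeps up the gradient for Oat1 and Oat3 and is named here after its values were seen, also fell (-1.14 ± 0.25, limma adjusted p = 0.0138), and its call ended with sex as a second factor (limma adjusted p = 0.146). Pdzk1, Slc13a2 and Slc51b were not analysed here.

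Of 14 measured regulators 4 were called lower and 1 higher, against 11.1% and 10.7% of all genes, with a median of -0.18. Nr1h3, the oxysterol receptor Lxr alpha, differed by -0.64 ± 0.09 (limma adjusted p = 0.00218). Ahr, the receptor for dioxin, was the rise, with 8.42, 8.30 and 8.49 in Cre-positive arrays, against 7.90, 7.86 and 7.77 in Cre-negative arrays (0.56 ± 0.09, limma adjusted p = 0.00378). Esr1, the oestrogen receptor alpha, differed by -0.59 ± 0.11, and Ppara, a fatty acid sensing receptor, by -0.54 ± 0.12. Hnf4a, a nuclear receptor on which many proximal tubule genes depend, was the fourth fall (-0.43 ± 0.11, limma adjusted p = 0.0322). It is also 1 of the 19 proximal tubule markers above and was counted there. With sex as a second factor Nr1h3 and Ahr stayed called, and Esr1, Ppara and Hnf4a did not (limma adjusted p = 0.0857, 0.139 and 0.227).

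**Figure D5:**
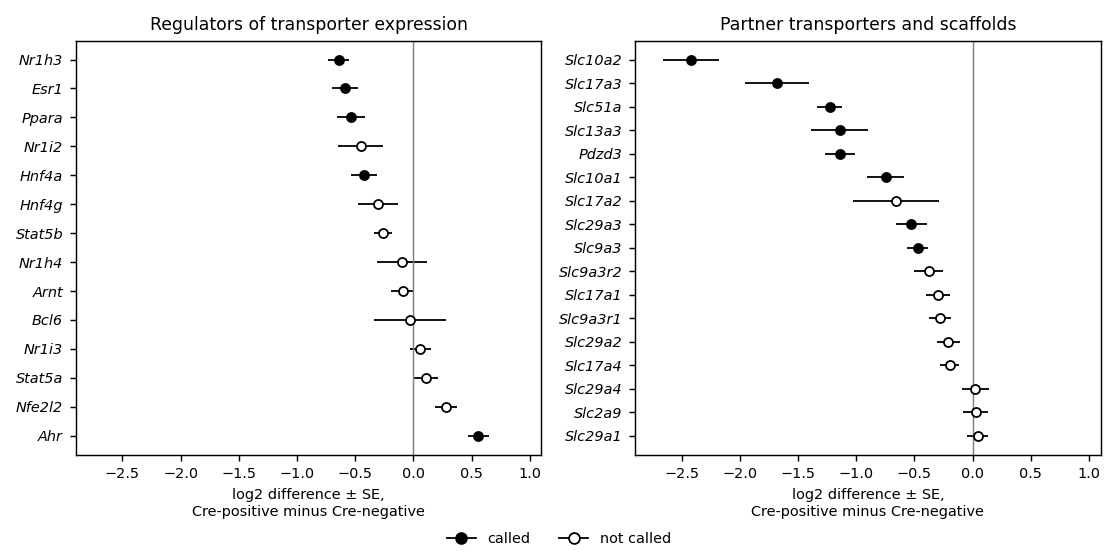
Log2 difference ± SE of 14 regulators (left) and 17 partner transporters and scaffolds (right) between Cre-positive and Cre-negative arrays, n = 3 per group, filled where called. Partners reach -2.42 in Slc10a2, and Ahr (0.56) is the only called gene above 0 in either list.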

How the data were processed

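Per the labels' protocols, total RNA was labelled with biotin by the Affymetrix protocol. The deposited table holds log2 values. The submitters' processing notes name RMA and Partek, without a version, and neither annotation nor genome build. RMA corrects background, equalises array distributions and summarises probes, which compresses dim signals. Scanner files were not used here, so neither background correction nor a scan batch was examined. Of 41345 probe sets, 23521 had exactly 1 gene symbol in GEO's platform annotation, 1814 several and 16010 none. For each of 22180 genes the probe set of highest mean was kept, with no filter on low values. All 66 members matched RefSeq (GRCm38.p6) by Entrez ID.

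The fit used limma 3.58.1 (R 4.3.3), two-sided and without covariates, and Benjamini-Hochberg adjustment over all genes. The number of arrays limits the precision. Sex was read from Xist and Y-linked genes. Promoter windows of 53 members came from RefSeq and were aligned globally. Values by array are given for up to 5 called members of smallest p per family and direction, 9 groups of paralogues and 6 single carriers. Values of Slc22a18, Slc22a23, Slco3a1 and Abcc3 were added after they were seen. The members, lists, motifs and alternatives were chosen with earlier results of these data known.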

Additional observations from a re-analysis of the deposited data

How the results depend on the processing

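The 25 falls and 6 rises were recomputed under other settings. Falls numbered 14 with male arrays alone (3 against 1, the lone array assumed to vary like the others) and 17 without both replicates 2. Rises numbered 3 without both replicates 2 and 3 at an adjusted p threshold of 0.01. Leaving out 1 array gave 21 to 24 falls and 3 to 5 rises. Over all genes the calls numbered 2030 with the sex term, 1101 with male arrays alone, 1853 without both replicates 2 and 2516 at the stricter threshold, against 4844 as reported, and 3141 (without Cre-negative replicate 1) to 4885 without 1 array. Some of these settings use fewer arrays or a stricter threshold, and what else lowers the counts was not tested. 11 of the 25 falls and 2 of the 6 rises kept their call under each alternative that tested them at 0.05. No named member that was called, either as reported or in the alternative, changed sign.

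The family medians moved by more than the spread between arrays in few settings. The Slc47a median was -0.40 without genes below the median level, where 1 gene was left, and -0.28 with the sex term and with male arrays alone. The Abcb median was -0.51 without genes below the median level and -0.075 with the sex term and with male arrays alone. The Abcg median was 0.086 without genes below the median level, where 2 genes were left. The Slco median was 0.39 in that setting, where 6 genes were left, against 0.03 over all 15. That move was within the wide spread of the Slco median between arrays (0.40). Without 1 array the medians ran from -1.50 to -1.27 in Slc22a, from -0.07 to 0.04 in Slco, from -0.22 to -0.06 in Slc47a, from -0.34 to -0.25 in Abcb, from -0.00480 to 0.18 in Abcc and from -0.10 to 0.0196 in Abcg. Same-numbered arrays of the groups did not deviate together (r = -0.04 to 0.03), so the numbers were not taken as pairs. With the replicate block, 24 falls and 4 rises were called. Signal near the level of absent transcripts may limit the fall of Slc22a7, Slc22a22, Slc22a27, Slc22a29, Slc22a30 and Slco1a1.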
